A study of Mus musculus with 10 samples.

Results

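The cells described are the collagen-high cells of mouse lung tumours. They were chosen by pooling the transcript counts (unique molecular identifiers, UMIs) of each of the authors' 33 clusters, converting them to counts per 1000000 UMIs (CPM), and keeping every cluster whose summed Col1a1, Col1a2 and Col3a1 reached at least 25% of the highest cluster. A single cluster, number 20, met the rule, and it held 379 of 44986 cells. Its summed CPM of the 3 collagens was 6089, and the next cluster, number 11, stood at 71.9, or 1.18% of it. The working name of these cells is fibroblasts, but the cluster was mixed, as described below, so they are called collagen-high cells here.

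Tumours grew in the lungs of syngeneic mice after intravenous injection of KP cells, a mouse lung adenocarcinoma line, and were seen by MRI before 11 days of treatment. The 4 treatments were vehicle, SHP099, SX682 and the combination of SHP099 with SX682. SHP099 inhibits SHP2, the phosphatase encoded by Ptpn11 that carries growth factor signals to the RAS and ERK pathway, and SX682 inhibits the chemokine receptors CXCR1 and CXCR2. All mice carried KP tumours, vehicle mice included, and the labels give neither their age nor a normal lung for comparison. Live cells of the nodules were enriched on magnetic beads, tagged by mouse, and pooled before capture, so that each treatment was 3 mice in 1 capture pool. A separate set of 6 bulk libraries, 3 from SHP099 and 3 from vehicle mice, was made from sorted Epcam+ cells. An effect of a treatment and an effect of its capture pool cannot be told apart in any single-cell comparison that follows.

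Fibroblasts build the extracellular matrix. They secrete the fibrillar collagens, encoded by Col1a1, Col1a2 and Col3a1, and small proteoglycans such as decorin (Dcn), which binds collagen fibrils. In the lung they comprise alveolar fibroblasts, which support the gas exchange surface, and adventitial fibroblasts around vessels and airways, and both lie near pericytes and smooth muscle cells that also make collagen. The mesothelium, the epithelial sheet covering the lung, shares matrix genes with fibroblasts and in addition carries keratins, uroplakins and the transcription factor Wt1. Growth factor receptors of these cells, such as those for PDGF and FGF, signal through SHP2 to ERK.

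The 4 pools held 12453 vehicle, 9162 SHP099, 10777 SX682 and 12594 combination cells. Collagen-high cells were deeper than the leukocytes around them, with a median of 7083 UMIs against 1256. Their median depth also differed by treatment, from 8124 to 15091 UMIs per cell in vehicle mice and from 6756 to 18700 in SX682 mice, against 3966 to 6066 in SHP099 mice and 2788 to 3956 in combination mice. Pairs of pools shared 141 to 203 cell barcodes, and no shared barcode marked a collagen-high cell in both pools. Bulk libraries held 51939301 to 73361005 counted reads.

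Markers and leading genes were read first, as a description, since collagen chose the cells. A UMI of Col1a1 (mm10, chromosome 11, 94936224 to 94953042, plus strand) was found in 87.3% of collagen-high cells and in 0.184% of leukocytes. For Col1a2 (chromosome 6, 4504814 to 4541544, plus strand) the shares were 90.0% and 0.146%, and for Col3a1 (chromosome 1, 45311538 to 45349706, plus strand) 90.2% and 0.223%. Dcn (chromosome 10, 97479609 to 97518143, plus strand), which the rule did not use, was found in 65.7% and 0.169%. After thinning each cell to 2000 UMIs, which kept 331 collagen-high cells and 6626 leukocytes, the 4 shares in collagen-high cells were 78.0%, 86.4%, 86.7% and 60.7%. All 4 markers of the label were therefore carried by most of these cells and were near background in leukocytes.

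Other genes that set the cells apart came from the matrix. Pooled Mgp, which encodes an inhibitor of calcification, stood at 14490 CPM against 373 in the highest other cluster. Timp1, an inhibitor of matrix proteases, stood at 2158 against 73.8. Col3a1 stood at 2604 against 27.6 and Dcn at 1783 against 18.6. The leading genes also held genes of other cells: Wt1 (chromosome 2, 105126529 to 105173616, plus strand) at 114 CPM against 0.48, and Acta2, the smooth muscle actin, at 923 against 95.0. Wt1 was found in 36.4% of the cells, Pdgfra, a receptor typical of fibroblasts, in 49.9%, and Acta2 in 37.5%. Ptprc, the leukocyte marker CD45, had a UMI in 23.8% of them, against 60.1% of leukocytes at their lower depth.

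Clustering of these cells alone gave 4 groups with very different genes. They are described without a test, since the same values formed them, and are named by a leading gene. The first principal component held 16.4% and the next 5.23% of the variance among cells. With 3 groups in place of 4, the Upk3b and Cxcl13 groups merged. With 5 groups, 62.9% of the cells of the Inmt group stayed together, against 80.0 to 95.2% for the others. The added group was led by Cxcl14, and the adventitial marker Dpt was among its 10 leading genes. The other markers and the depth of each group are given with it.

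The Inmt group held 89 cells with a median of 3529 UMIs. Inmt (chromosome 6, 55170626 to 55175043, minus strand), a methyltransferase of lung mesenchyme, stood at 3958 CPM there, and between 1.0 and 71.9 in the other groups. Pdgfra stood at 646 CPM, against 41.9 to 178 elsewhere, and C7, a complement component, at 468 against 0 to 4.0. Inmt, Limch1 and Npnt, which are alveolar fibroblast markers, were among its 10 leading genes, so this group is called alveolar fibroblast-like. Pcolce2, an adventitial marker, was among them too, and the adventitial list summed to 3334 CPM here, against 496 to 859 in the other groups, while the alveolar list summed to 7284 CPM. No UMI of Wt1 was found in it, where 3 UMIs would have made 7.43 CPM.

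The Upk3b group was the deepest, with 132 cells and a median of 17489 UMIs. Upk3b (chromosome 5, 136038496 to 136046487, plus strand), a uroplakin of the mesothelium, stood at 152 CPM there and at 0 to 8.0 in the other groups. Msln, which encodes mesothelin, stood at 255 CPM against 0 to 24.0, and the keratin Krt18 at 647 against 5.0 to 143. Acta2 stood at 1131 CPM. Col1a1 reached 1855 CPM, above the 1223 of the alveolar fibroblast-like group. The group therefore paired collagen with mesothelial and keratin genes, and it was given no cell type name. Cdkn2a stood at 81.3 CPM, and at 863 in the tumour cluster.

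The Cxcl13 group held 83 cells with a median of 10427 UMIs. Cxcl13 (chromosome 5, 95956951 to 95961068, plus strand), a chemokine that attracts B cells, stood at 1980 CPM against 24.0 to 56.9 elsewhere. Dcn was highest here, at 3568 CPM, and Wt1 stood at 139 CPM, close to the 132 of the Upk3b group. Leukocyte markers summed to 5986 CPM in this group, against 822 in the Upk3b group, and Acta2 stood at 35.9 CPM. No cell type name was given to it.

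The Myh11 group was the smallest and shallowest, with 75 cells and a median of 2439 UMIs. Myh11 (chromosome 16, 14194535 to 14291372, minus strand), the smooth muscle myosin, stood at 619 CPM against 6.2 to 9.9 elsewhere, and Acta2 at 3425 CPM. Pdgfrb, a receptor typical of pericytes, stood at 508 CPM against 29.2 to 86.7. Haemoglobin Hbb-bs stood at 607 CPM, all 152 UMIs of it in 1 cell. Endothelial markers summed to 1071 CPM, against 161 to 542 in the other groups. Leukocyte markers summed to 7153 CPM, so the group stayed unnamed. Doublets were not called here, and the part that cells of other types took in these sums was not tested.

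**Figure D1:**
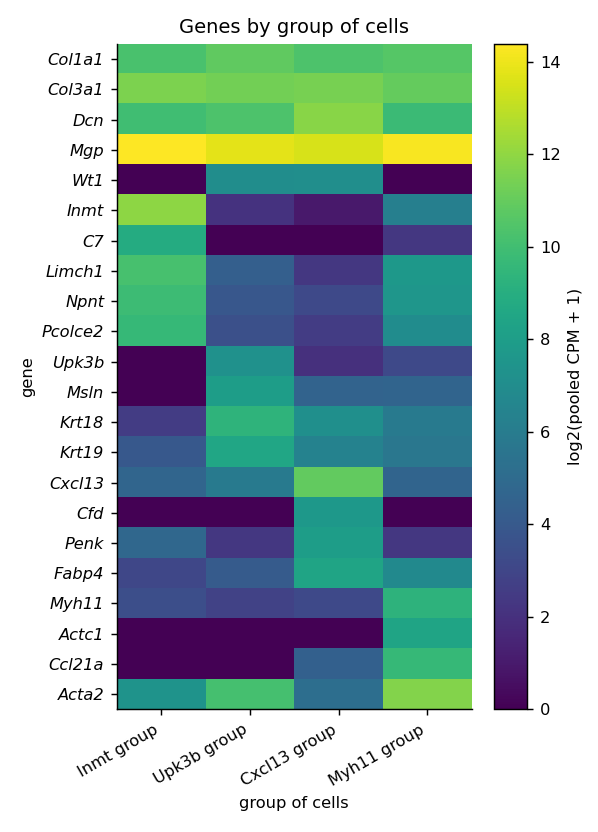
Heat map of pooled expression, log2(CPM + 1), of 22 genes (rows) in the 4 groups of collagen-high cells (columns). Col1a1 and Col3a1 were high in all 4 groups, while Inmt, Upk3b, Cxcl13 and Myh11 were each high in 1 group.

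**Figure D2:**
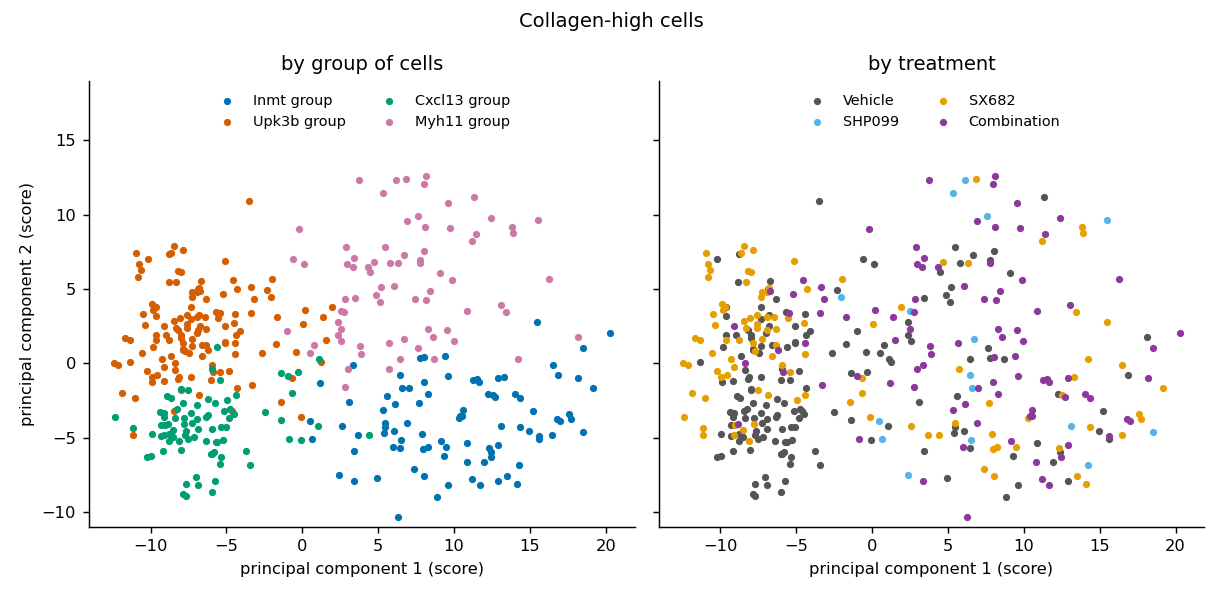
Each point is 1 of the 379 collagen-high cells on the first 2 principal components (16.4% and 5.23% of the variance), coloured by group in one panel and by treatment in the other. Cells of the Upk3b and Cxcl13 groups lay apart from the Inmt and Myh11 groups, and most SHP099 and combination cells lay with the latter.

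Collagen-high cells were scarcest after SHP099. Vehicle mice had 94, 43 and 27 of them, which were 1.47%, 1.26% and 1.03% of all cells (mean 1.25% ± 0.222, SD, n = 3). SHP099 mice had 7, 5 and 4, which were 0.185%, 0.162% and 0.175% (0.174% ± 0.0113). SHP099 and vehicle mice did not overlap.

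SX682 mice spread widely, with 54, 46 and 7 cells, or 1.43%, 1.11% and 0.245% (0.928% ± 0.612). Combination mice had 38, 34 and 20, or 0.896%, 0.627% and 0.682% (0.735% ± 0.142), below every vehicle mouse. SX682 mouse 3 lay far below the other two mice of its treatment, and those other two lay within the vehicle range.

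The share differed across the 12 mice by an exact permutation test (two-sided by its F statistic, p = 0.0141 over 15400 partitions, where the smallest possible p is 6.494e-05). In edgeR's test of cell counts over 33 clusters, the log2 fold change of SHP099 against vehicle was -2.83 ± 0.56 (SE, adjusted p = 0.00118), and this call was kept without each mouse in turn. That test called 45.5% of the clusters in the same comparison. The combination did not pass against vehicle by this test (log2 fold change -0.77, adjusted p = 0.246, 24.2% of clusters called), nor SX682 from vehicle (-0.42, adjusted p = 0.656, 3.03% called), nor the combination from SX682 (-0.35, adjusted p = 0.694, 12.1% called). Combination against SHP099 gave 2.06 ± 0.57 (adjusted p = 0.0399, 6.06% called), and this call was lost without any 1 of the 9 vehicle, SHP099 and combination mice, with log2 fold changes of 1.89 to 2.16 over all leave-one-out fits.

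A share depends on what the other cells do. Endothelial cells, which come from the same stroma, numbered 256, 51 and 42 in vehicle mice and 62, 14 and 12 in SHP099 mice. Collagen-high cells per 100 endothelial cells were 36.7, 84.3 and 64.3 in vehicle mice and 11.3, 35.7 and 33.3 in SHP099 mice, so the vehicle mice lay above the SHP099 mice by this measure too. SX682 mice had 16.0, 80.7 and 77.8, and combination mice 17.3, 31.2 and 20.6. Of stromal cells alone (collagen-high and endothelial), the share gave a log2 fold change of -1.06 for SHP099 against vehicle, which did not pass (edgeR, adjusted p = 0.121). Combination against vehicle gave -0.99 and passed (edgeR, adjusted p = 0.0436). This fit held only the collagen-high cells and the endothelial clusters 10 and 11, and all of them passed in that comparison. The exact permutation test of the stromal share over 12 mice gave p = 0.244.

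The makeup of the collagen-high cells also differed between treatments. Of 164 vehicle cells, 31.1% lay in the Upk3b group and 41.5% in the Cxcl13 group, and vehicle mouse 3 had none in the alveolar fibroblast-like group. Of 16 SHP099 cells, 56.3% lay in the alveolar fibroblast-like group and 37.5% in the Myh11 group, and 0 lay in the Cxcl13 group, which allows a share of up to 18.8%. Of 107 SX682 cells, 58.9% lay in the Upk3b group. Of 92 combination cells, 39.1% lay in the alveolar fibroblast-like group, 39.1% in the Myh11 group and 3.26% in the Cxcl13 group.

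As a percentage of all cells, the Upk3b and Cxcl13 groups together were 0.945 ± 0.0848 in vehicle mice, 0.650 ± 0.416 in SX682 mice, 0.152 ± 0.0977 in combination mice and 0.0088 ± 0.0152 in SHP099 mice (SD, n = 3 each). The alveolar fibroblast-like and Myh11 groups together were 0.305 ± 0.233, 0.279 ± 0.203, 0.583 ± 0.0743 and 0.165 ± 0.00859 in the same order. Each vehicle mouse therefore lay above each combination and SHP099 mouse in the first pair of groups. Genes that treatment changed also formed the groups, so these shares were not tested, and the lower depth of SHP099 and combination cells ran with them.

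**Figure D3:**
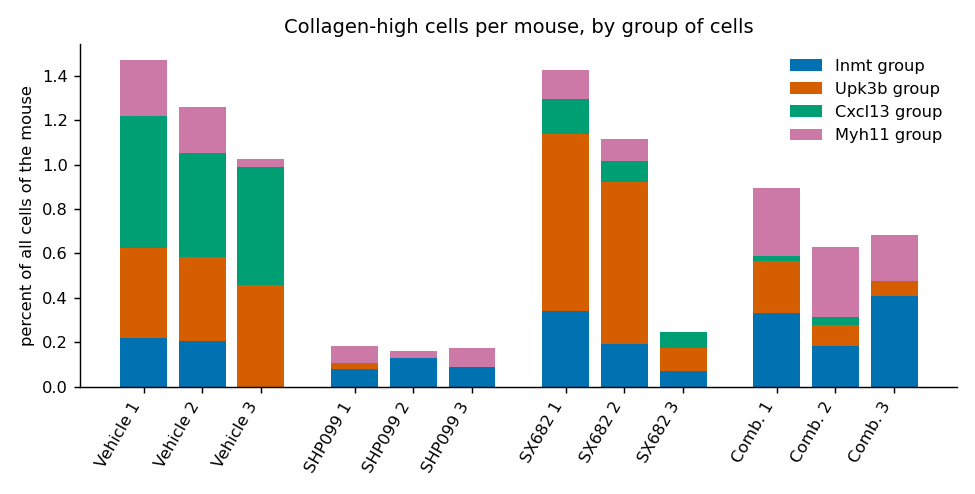
Stacked bars give, for each of the 12 mice, collagen-high cells as a percentage of all cells of that mouse, split into the 4 groups. The 3 SHP099 mice reached 0.162 to 0.185%, against 1.03 to 1.47% in vehicle mice, and the Cxcl13 segment was tallest in vehicle mice.

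Gene tests compared sums of UMIs per mouse, for the 8 mice with at least 10 collagen-high cells: vehicle mice 1 to 3, SX682 mice 1 and 2, and combination mice 1 to 3. The fit held 7634 genes and a biological coefficient of variation of 20.5%. The comparisons with vehicle share the vehicle mice, and those with the combination share the combination mice. In what follows a gene rose or fell where edgeR's quasi-likelihood test gave a Benjamini-Hochberg adjusted p below 0.05, and per-mouse values are CPM on TMM-scaled totals. All sums mix the 4 groups of cells, whose proportions differed as given above. How far those proportions account for a change in a sum was not tested.

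The collagens that chose the cells are given as a description, with no test. Col1a1 was 1813, 1308 and 2191 CPM in vehicle mice, 2066 and 1605 in SX682 mice, and 1270, 2226 and 1136 in combination mice, which overlap. Col3a1 was 2590, 2231 and 3346 CPM, 2946 and 2348, and 3437, 3932 and 2736 in the same order, and also overlapped. Dcn, which the rule did not use, was 1830, 2843 and 3269 CPM in vehicle mice and 3407, 1801 and 800 in combination mice, and did not pass (log2 fold change -0.39, adjusted p = 0.64).

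Combination against vehicle called 262 of 7634 genes (3.43%), 85 higher (1.11%) and 177 lower (2.32%). Leaving out 1 mouse at a time gave 106 to 265 calls, with 147 without vehicle mouse 1, 115 without vehicle mouse 2, 149 without vehicle mouse 3, 106 without combination mouse 2 and 110 without combination mouse 3. With each cell thinned to 2000 UMIs, 1489 genes were tested and 88 called, of which 72 were among the 262 in the same direction. By list, most calls fell on hypoxia and glycolysis genes and on immediate early genes, which are given after the fibroblast markers.

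Among markers of adventitial fibroblasts, 4 of 7 rose and none fell, with a median log2 fold change of 1.53, against -0.04 over all genes. Clec3b, which encodes the plasminogen-binding protein tetranectin, was 56.3, 21.6 and 13.2 CPM in vehicle mice and 419, 384 and 568 in combination mice (3.73 ± 0.47, adjusted p = 0.00346). Dpt, which encodes the matrix protein dermatopontin, was 44.6, 26.9 and 23.8 against 138, 310 and 406 (3.01 ± 0.38, adjusted p = 0.00346). Pcolce2, an enhancer of procollagen processing, rose by 3.11 ± 0.48 (adjusted p = 0.00579), and was also a leading gene of the alveolar fibroblast-like group. The combination mice lay above all vehicle mice in each of these genes. Not all of the list went this way. Serpinf1, which was not called, was 204, 140 and 323 CPM in vehicle mice and 95.8, 101 and 23.2 in combination mice. Fbln1 was 155, 98.8 and 148 against 95.8, 196 and 151, which overlap.

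Among alveolar fibroblast markers, 3 of 8 rose and all 8 were higher, with a median of 2.35. Itga8, an integrin chain that binds nephronectin, was 21.1, 18.0 and 7.95 CPM in vehicle mice and 114, 128 and 185 in combination mice (2.99 ± 0.34, adjusted p = 0.00346). Tcf21, a transcription factor of lung mesenchyme, rose by 2.64 (adjusted p = 0.0312), a call lost without vehicle mouse 2 (2.77), combination mouse 2 (2.91) or combination mouse 3 (1.92). Limch1 rose by 2.58 (adjusted p = 0.0353), a call lost without vehicle mouse 1 (2.78), vehicle mouse 2 (3.03), combination mouse 2 (2.83) or combination mouse 3 (1.82). Ogn, a small proteoglycan, was 75.1, 57.5 and 10.6 CPM against 371, 351 and 649 (3.10 ± 0.48, adjusted p = 0.00579), and C7 rose by 3.30 ± 0.55 (adjusted p = 0.00944). Ogn and C7 were also leading genes of the alveolar fibroblast-like group, whose share of the cells was larger in combination mice.

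Signals to lymphocytes moved both ways. Of 10 such genes tested, Ccl19 and Ccl21a rose and Cxcl13 fell. Cxcl13 was 710, 1108 and 797 CPM in vehicle mice and 174, 54.0 and 34.8 in combination mice (-3.19 ± 0.40, adjusted p = 0.00346). Ccl21a, a chemokine that guides T cells and dendritic cells, was 35.2, 0 and 0 CPM against 515, 236 and 684 (4.90 ± 0.76, adjusted p = 0.00589). It was a leading gene of the Myh11 group, and its 220 UMIs lay in 8 of the collagen-high cells. Endothelial markers, which were highest in that group, summed to 303, 366 and 129 CPM in vehicle mice. They summed to 360, 748 and 520 CPM in combination mice, and their part in the Ccl21a values was not tested. Iigp1, an interferon-induced GTPase, rose by 2.76 ± 0.35 (adjusted p = 0.00346), as 1 of 3 of 20 interferon response genes that rose, while none fell. Igfbp5, which binds insulin-like growth factors, rose by 2.03 ± 0.27 (adjusted p = 0.00346).

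Immediate early genes, which growth factors and stress switch on within minutes, fell together. Of 19 tested, 11 fell, none rose, and all 19 were lower, against 52.5% of all genes, with a median of -1.55. Fos, a subunit of the transcription factor AP-1, was 2186, 1769 and 1203 CPM in vehicle mice and 539, 519 and 429 in combination mice (-1.79 ± 0.25, adjusted p = 0.00428). Its partner Junb fell by 1.55 ± 0.23 (adjusted p = 0.00579) and the transcription factor Klf4 by 2.15 ± 0.33 (adjusted p = 0.00579), both on the log2 scale. Ier3, a survival factor that is also a target of ERK, was 1450, 1248 and 1735 CPM against 198, 506 and 104 (-2.40 ± 0.37, adjusted p = 0.00589).

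Of 19 ERK target genes, 3 fell, none rose and 17 were lower, with a median of -1.21. Besides Ier3 these were Phlda1 and Etv5, and both calls depended on single mice. Phlda1 fell by 1.21 on the log2 scale (adjusted p = 0.0458), a call lost without vehicle mouse 1 (-0.77), vehicle mouse 2 (-1.31) or any combination mouse (-1.15, -1.22 and -1.22). Etv5, a transcription factor whose expression follows ERK activity, was 18.8, 21.6 and 18.5 CPM in vehicle mice and 0 in all 3 combination mice. Against a floor of 3 UMIs over the combination mice, or 7.64 CPM, it was at least 2.33-fold lower (adjusted p = 0.0481), a call lost in the 4 fits without vehicle mouse 3 or any 1 combination mouse (adjusted p from 0.0842 to 0.117). Without any other mouse it did not pass the filter on low counts and was not tested. Pooled UMIs of the whole list were 3544, 3002 and 3113 CPM in vehicle mice and 1262, 1745 and 1206 in combination mice, which do not overlap.

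Of 18 hypoxia and glycolysis genes, 12 fell and none rose, with a median of -1.75. Pgk1, a glycolytic kinase, was 784, 681 and 800 CPM in vehicle mice and 156, 182 and 58.0 in combination mice (-2.43 ± 0.35, adjusted p = 0.0046). Ldha, which makes lactate, was 1075, 1505 and 1266 against 311, 560 and 255 (-1.75 ± 0.27, adjusted p = 0.00589). Gapdh, a glycolytic enzyme, was 2223, 2500 and 2443 against 880, 911 and 638 (-1.55 ± 0.19, adjusted p = 0.00346). Egln3, an oxygen sensor that hypoxia induces, fell by 2.56 ± 0.32 (adjusted p = 0.00346), and Vegfa, the endothelial growth factor, by 1.75 ± 0.29 (adjusted p = 0.00944), on the log2 scale.

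Matrix and contractile genes changed one by one. Fn1, fibronectin, was 6096, 5134 and 6499 CPM in vehicle mice and 2779, 2374 and 1484 in combination mice (-1.41 ± 0.21, adjusted p = 0.00579), and Timp1 fell by 1.43 ± 0.20 on the log2 scale (adjusted p = 0.00428). Of 14 myofibroblast genes, Cthrc1 and Inhba fell and none rose, with a median of 0.02. Cthrc1, a secreted protein of activated fibroblasts, was 148, 119 and 193 CPM against 12, 27.0 and 0 (-3.33 ± 0.47, adjusted p = 0.00428). Inhba, an activin subunit, fell by 3.24 on the log2 scale, a call lost without vehicle mouse 2 (-2.72) or any combination mouse (-2.96, -4.37 and -2.88). Krt8, a keratin, was 285, 386 and 413 CPM against 120, 121 and 23.2 (-1.90 ± 0.35, adjusted p = 0.0134), and belongs with the 3 of 6 epithelial markers that fell, while Sftpc, a surfactant gene, rose. That marker list summed to 956 CPM in vehicle and 723 CPM in combination cells, and its part in the gene changes was not tested. None of 12 leukocyte markers passed in this comparison (0 at an unadjusted p below 0.05, which 18.8% of all genes reached, and 0 by DESeq2), and their median was -0.16.

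**Figure D4:**
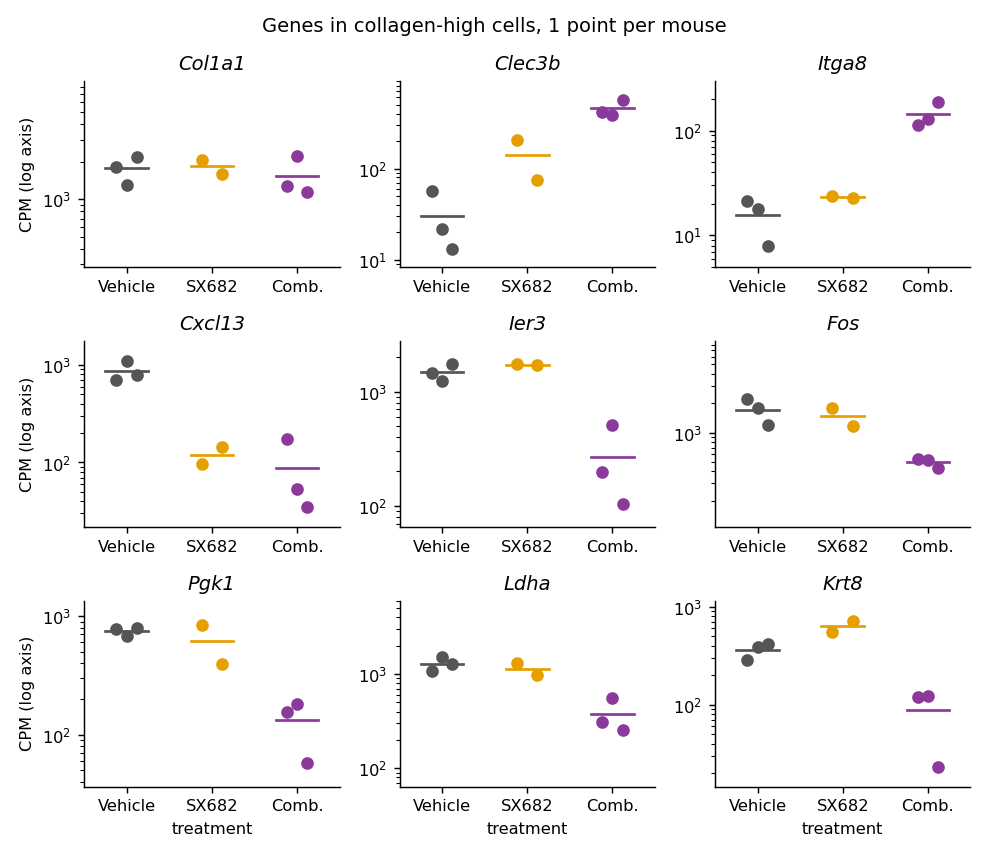
CPM (log axis) of 9 genes in collagen-high cells of the 8 mice with at least 10 such cells, by treatment; points are mice and bars their means. Col1a1 overlapped between treatments, Clec3b and Itga8 were highest in combination mice, and Cxcl13, Ier3, Fos, Pgk1, Ldha and Krt8 were lower in combination than in vehicle mice.

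The same lists were read within single groups of cells, as a description. In the Upk3b group, hypoxia and glycolysis genes summed to 5837, 9972 and 7764 CPM in vehicle mice, to 9456, 6773 and 5216 in SX682 mice (the last from 3 cells), and to 3794 and 3760 in combination mice 1 and 2, with 10 and 5 such cells. Combination mouse 3, with 2 such cells, was left out of these sums. ERK targets summed to 2518, 2354 and 2036, to 3480, 3425 and 1879, and to 1400 and 2078 in the same order. The combination mice lay lowest for the first list and overlapped the others for the second. Immediate early genes summed to 9795, 10178 and 6475 CPM in vehicle mice and to 3004 and 5763 in combination mice.

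The alveolar fibroblast-like group was read in the same way, over all its cells of a treatment. Hypoxia and glycolysis genes summed to 1838 CPM in vehicle cells, 2477 CPM under SHP099, 2185 CPM under SX682 and 1742 CPM under both drugs. ERK targets summed to 1798, 2078, 1795 and 1430 CPM in that order, and immediate early genes to 8407, 7218, 8912 and 6513. These are pooled cells of each treatment, with no values per mouse.

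Combination against SX682, 2 regimens that share the CXCR1 and CXCR2 inhibitor, called 614 genes (8.04%), 313 higher (4.10%) and 301 lower (3.94%). Leaving out 1 mouse gave 107 to 638 calls, with 200 without SX682 mouse 1, 107 without SX682 mouse 2, 249 without combination mouse 2 and 276 without combination mouse 3. Only 2 SX682 mice entered, and with thinned cells 34 of 1489 genes were called.

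Markers of resident fibroblasts and part of the smooth muscle markers were higher in the combination. Of 8 alveolar markers 4 rose and of 7 adventitial markers 4 rose, none of either list fell, and the medians were 2.25 and 1.69, against -0.03 over all genes. Itga8 was 23.7 and 22.5 CPM in SX682 mice against 114, 128 and 185 in combination mice (2.55 ± 0.34, adjusted p = 0.00292), and Dpt was 28.5 and 20.4 against 138, 310 and 406 (3.47 ± 0.43, adjusted p = 0.00242). Of 10 smooth muscle markers 4 rose, with a median of 2.18. Among them, Myh11 rose by 4.59 (adjusted p = 0.0128), a call lost without SX682 mouse 2 (4.01) or combination mouse 2 (3.68). Other contractile genes did not go this way. Acta2 was 652 and 1476 CPM in SX682 mice against 1138, 1565 and 719 in combination mice, which overlap, and Tagln and Des overlapped too. Tpm1 was lower in each combination mouse, at 563, 546 and 406 CPM against 1019 and 1604. Of 9 endothelial markers 3 rose (Cldn5, Tie1 and Plvap), 8 were higher and the median was 2.74. That list summed to 183 and 165 CPM in SX682 mice 1 and 2 and to 360, 748 and 520 in combination mice, and its part in the other calls was not tested. Pdgfra rose by 1.88 (adjusted p = 0.00878), a call lost without SX682 mouse 2 (1.57).

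Presentation genes of MHC class II rose as well, in 6 of 7, with a median of 1.87. Cd74, the invariant chain, was 550 and 447 CPM in SX682 mice and 2096, 1201 and 1391 in combination mice (1.65, adjusted p = 0.023), a call lost without SX682 mouse 1 (1.78), SX682 mouse 2 (1.48) or combination mouse 1 (1.39). H2-Aa was 129 and 78.4 against 778, 688 and 406 (2.61, adjusted p = 0.00583), lost without SX682 mouse 2 (2.26). Leukocyte markers rose beside them: 5 of 12 passed, all 12 were higher, while 51.6% of all genes were lower, and the median was 1.68. The whole leukocyte list summed to 849 and 949 CPM in SX682 mice 1 and 2 and to 4224, 2084 and 4507 in combination mice. Tyrobp, an adaptor of myeloid receptors, rose by 1.99 ± 0.31 (adjusted p = 0.00492). The part of leukocyte RNA in the class II genes was not tested.

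Growth-related genes were lower in the combination than under SX682. Of 15 cell cycle genes 8 fell and none rose, with a median of -2.03. Cdk1, the mitotic kinase, was 93.7 and 78.4 CPM in SX682 mice and 12, 6.74 and 11.6 in combination mice (-3.08 ± 0.47, adjusted p = 0.00438). Of 19 ERK targets 5 fell and none rose, with a median of -1.49, or -1.44 with genes at 0 in the combination set at their bound. Ier3 was 1746 and 1711 CPM against 198, 506 and 104 (-2.63 ± 0.40, adjusted p = 0.0043). Etv4 and Etv5, both at 0 in all combination mice, were at least 4.05-fold and at least 2.72-fold lower, and calls of both were lost without any 1 combination mouse, that of Etv4 also without either SX682 mouse. In 4 of the 8 leave-one-out fits Etv5 did not pass the filter on low counts.

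Of 19 immediate early genes 8 fell and of 18 hypoxia and glycolysis genes 6 fell, and none rose in either list. Gapdh was 3536 and 2589 CPM in SX682 mice against 880, 911 and 638 in combination mice (-1.91 ± 0.21, adjusted p = 0.00125). Keratins fell further than in the comparison with vehicle mice by value: Krt18 was 682 and 888 CPM against 108, 67.4 and 92.7 (-3.13 ± 0.29, adjusted p = 0.000929), and Krt8 fell by 2.73 ± 0.36 (adjusted p = 0.00292) on the log2 scale. Krt76 was 94.9 and 216 CPM against 0 in all combination mice, at least 19.6-fold lower (adjusted p = 0.0108). Timp1 was 3105 and 3109 CPM against 581, 816 and 788 (-2.10 ± 0.21, adjusted p = 0.00116). Among fibrillar collagens that the rule did not use, Col5a1 and Col5a2 fell. Wt1 was 139 and 158 CPM against 71.9, 74.2 and 58.0 (-1.09, adjusted p = 0.0306), a call lost without either SX682 mouse (-1.22 and -1.03) or any combination mouse (-1.11, -1.15 and -1.01).

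Of the 3 comparisons in the fit of 8 mice, SX682 against vehicle called the fewest genes: 50 (0.655%), with 9 higher (0.118%) and 41 lower (0.537%). Without SX682 mouse 2 only 3 calls were left, without vehicle mouse 2 there were 19, without vehicle mouse 1 there were 30, and without combination mouse 1, which adds to the estimate of spread, there were 75. No gene of the 19 ERK targets passed by edgeR or DESeq2, and 1 had an unadjusted p below 0.05, against 11.9% of all genes. The median over all genes was -0.01.

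Cxcl13 was lower under SX682 in the 2 mice tested, at 96.1 and 144 CPM against 710, 1108 and 797 in vehicle mice (-2.86 ± 0.40, adjusted p = 0.0117), a call lost without SX682 mouse 1 (-2.59) or SX682 mouse 2 (-3.18). SX682 mouse 3, which had 7 cells and was left out, stood at 5695 CPM before scaling, from 1 cell that held 370 UMIs of Cxcl13, and with it the log2 fold change turned to 1.22. Wfdc17, a gene of activated macrophages, was 4.74 and 8.59 CPM against 98.6, 106 and 87.4 (-3.81 ± 0.32, adjusted p = 0.000306). Leukocyte markers were lower beside it, with 3 of 12 passing, all 12 lower (50.8% of all genes were) and a median of -1.85. The whole list summed to 3619, 5394 and 2572 CPM in vehicle mice and to 849 and 949 in SX682 mice 1 and 2, and its part in the calls was not tested.

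Apln, a peptide ligand that hypoxia induces, was 3.56 and 1.07 CPM under SX682 against 59.8, 111 and 95.4 (-5.12 ± 0.59, adjusted p = 0.00439), a call lost without SX682 mouse 2 (-4.51). Vegfa was 59.3 and 71.9 CPM against 216, 237 and 209 (-1.75 ± 0.26, adjusted p = 0.0141), a call lost without SX682 mouse 1 (-1.61) or SX682 mouse 2 (-1.89). Of 18 hypoxia and glycolysis genes, 4 fell (Ero1l, Vegfa, Ankrd37 and Egln3). In the other direction, Ptgs2, the inducible prostaglandin synthase, was 580 and 523 CPM against 187, 246 and 146 (1.51 ± 0.25, adjusted p = 0.0198), a call lost without vehicle mouse 1 (1.47), SX682 mouse 1 (1.44) or SX682 mouse 2 (1.58). Krt14, a basal keratin, was 79.5 and 81.6 CPM against 8.21, 14.4 and 0 (3.24 ± 0.44, adjusted p = 0.0116), lost without SX682 mouse 2 (3.22).

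Ligands of the receptors that SX682 blocks were read in every treatment. Cxcl1 was 310, 97.0 and 223 CPM in vehicle mice, 458 and 318 in SX682 mice, and 77.8, 87.7 and 0 in combination mice. The combination lay below SX682 (-2.62, adjusted p = 0.0199, a call lost without SX682 mouse 1 at -2.37 or combination mouse 2 at -2.97). It did not pass against vehicle (-1.75, adjusted p = 0.107), nor did SX682 against vehicle (0.87, adjusted p = 0.461). Pooled Cxcl2 stood at 474 CPM in vehicle cells and 674 CPM under SX682, at 205 CPM under SHP099 and at 369 CPM in the combination. Ptpn11, which encodes the target of SHP099, stood at 60.6, 69.6, 156 and 66.2 CPM in that order, and inhibiting the protein need not alter it. The SHP099 values of both genes rest on 16 cells. By mouse, Cxcl2 was 550, 347 and 715 CPM in vehicle mice and 536 and 920 in SX682 mice. Combination mice stood at 108, 492 and 626 CPM, so these treatments overlapped. The whole ligand list summed to 24.2, 611 and 74.7 CPM in SHP099 mice 1 to 3.

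After SHP099 alone, 16 cells were left, too few for the test of at least 10 cells per mouse. Their pooled values are given with exact Poisson intervals at 95%, which cover counting error only. Col1a1 was 2764 CPM (2451 to 3105), against 1578 in vehicle cells, and the 3 mice stood at 4141, 1980 and 1644 before scaling. The fibrillar collagens together summed to 13708, 10772 and 11885 CPM in SHP099 mice, against 6637, 5553 and 8141 in vehicle mice, which do not overlap. The rule used 3 of these collagens, so this is a description. Inmt was 1563 CPM (1330 to 1824) in SHP099 cells, against 216 in vehicle cells, and Cxcl12, a chemokine of stromal cells, was 762 CPM (602 to 951) against 171. Fos was 547 CPM (413 to 710) against 1681, and Gapdh 732 CPM (576 to 918) against 2142. Wt1 rested on 1 UMI.

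By list, hypoxia and glycolysis genes summed to 2543, 1980 and 2616 CPM in SHP099 mice, against 7541, 8401 and 8148 in vehicle mice and 2808, 3206 and 2158 in combination mice. ERK targets summed to 1550, 2271 and 1831 CPM in SHP099 mice, below the lowest vehicle mouse. Markers of other cells moved with them: leukocyte markers summed to 388, 2678 and 149 CPM in SHP099 mice, against 3619, 5394 and 2572 in vehicle mice. Epithelial and tumour markers summed to 39.1 CPM in SHP099 cells against 956 in vehicle cells, and smooth muscle markers to 7266 against 1831. By mouse, smooth muscle markers summed to 2228, 8559 and 13380 CPM under SHP099 and to 2850, 1154 and 519 in vehicle mice, which overlap. Their part in the list values was not tested. The sums sit beside a makeup of 9 alveolar fibroblast-like, 6 Myh11 and 1 Upk3b group cells.

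A looser fit with at least 5 cells per mouse admitted SHP099 mice 1 and 2, with 7 and 5 cells. It tested 3895 genes and called 202 against vehicle (5.19%), 77 higher (1.98%) and 125 lower (3.21%). Without SHP099 mouse 1 there were 39 calls, without SHP099 mouse 2 there were 23, without vehicle mouse 2 there were 89 and without vehicle mouse 3 there were 94. Gapdh fell by 1.86 ± 0.25 (adjusted p = 0.00475) and Eno1, a glycolytic enzyme, by 3.15 ± 0.44 (adjusted p = 0.00477) on the log2 scale. Both calls were kept without each of vehicle mice 1 to 3. Leaving out SHP099 mouse 1 or 2 left a single SHP099 mouse in the fit. The log2 fold changes were then -2.13 and -2.125 for Gapdh, and -4.10 and -3.00 for Eno1. Ogn rose by 3.51 ± 0.64 (adjusted p = 0.0104), a call lost without SHP099 mouse 1 (2.41). Fos fell by 2.27 ± 0.38 on the log2 scale (adjusted p = 0.00742), a call lost without SHP099 mouse 1 (-2.24). In that fit combination against SHP099 called 0 genes (0%) by edgeR, with 392 (10.1%) at an unadjusted p below 0.05.

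The bulk libraries of Epcam+ cells gave a readout of the same genes that the rule did not use, in other samples. A sort for Epcam should leave out fibroblasts, yet collagen was counted in all 6 libraries, and fewer collagen-making cells and less RNA per cell cannot be told apart in them. Col1a1 was 327, 503 and 292 CPM in vehicle libraries and 124, 133 and 80.8 in SHP099 libraries (-1.73 ± 0.26, adjusted p = 0.0814). Col3a1 was 659, 1180 and 605 against 393, 390 and 239 (-1.26 ± 0.30, adjusted p = 0.224), and Dcn was 115, 223 and 149 against 76.6, 93.2 and 26.2 (-1.32 ± 0.45, adjusted p = 0.423). Wt1 was 7.52, 10.5 and 11.1 against 1.51, 3.07 and 0.501 (-2.52 ± 0.58, adjusted p = 0.208). All vehicle libraries lay above all SHP099 libraries in these 4 genes, and none passed.

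Of the 30 leading genes of the collagen-high cells, edgeR called 0, as the whole fit called only 23 of 20314 genes (0.113%). That count was 3 and 0 without SHP099 libraries 1 and 2, and 2, 9 and 4 without vehicle libraries 1 to 3. A lower value with an unadjusted p below 0.05 was reached by 24 of the 30, against 6.29% of all genes. DESeq2, which called 594 genes in all, called 21 of the 30, all lower, Col1a1 among them. By value 29 of 30 were lower, against 50.2% of all genes, and 24 were lower without overlap, against 8.59%. Their median was -1.28, against -0.00 over all genes.

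Leading genes of the alveolar fibroblast-like group differed from this in bulk. These 10 genes had a median of 0.54, with 8 of 10 higher. DESeq2 called 4 of the 10, with 0 lower, while none of them passed in edgeR. Adventitial markers went both ways, as DESeq2 called 3 of 10, 2 of them lower. The genes that name the other groups did not pass in edgeR, with log2 fold changes of -0.06 (Upk3b), -0.86 (Cxcl13) and 0.70 (Myh11). Inmt was 14.7, 13.6 and 26.7 CPM in vehicle libraries and 76.4, 89.7 and 21.3 in SHP099 libraries, which overlap (1.77, adjusted p = 0.322). Leukocyte markers had a median of -0.62 and endothelial markers one of 0.33, and their part in these values was not tested. Bulk counts ignored strand, per the names of the deposited tables. Exons of Col3a1, Fn1, Junb, Gapdh, Pkm, Krt8, Itga8, Hhip, Pdgfra, Cd74, Phlda1 and Ankrd37 overlap another annotated gene. So do exons of C1s1, Col5a1, Ptgis, Rarres2, Sbsn and Tagln, which like Col3a1 are leading genes of the collagen-high cells. Mfap4, a leading gene of the alveolar fibroblast-like group, has such an overlap as well. Counts of all these genes are uncertain to that extent.

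**Figure D5:**
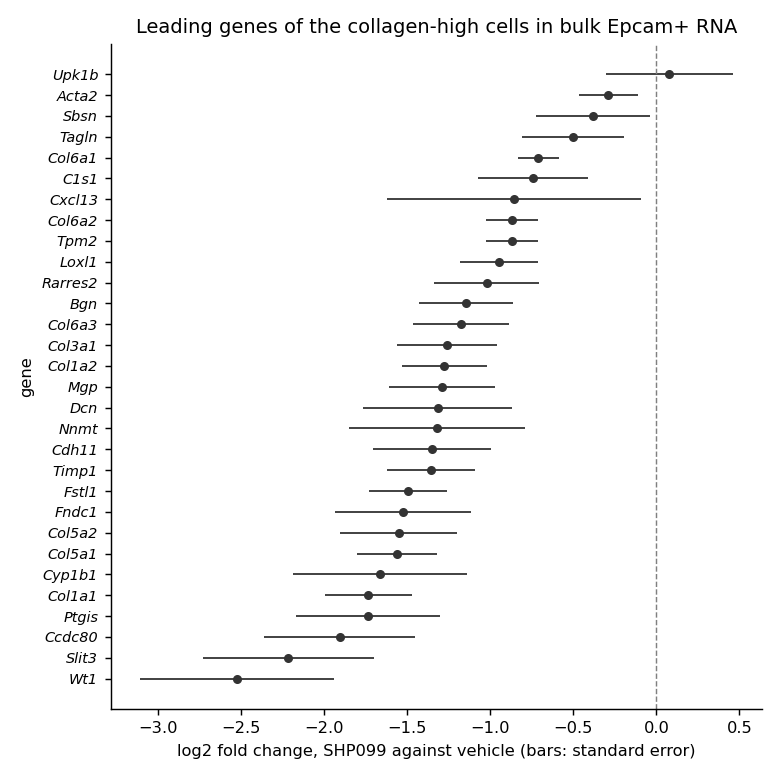
Log2 fold change (SHP099 against vehicle, edgeR) with its standard error in bulk Epcam+ libraries for the 30 leading genes of collagen-high cells. All but Upk1b (0.08) lay below 0, and Wt1 (-2.52) and Slit3 (-2.21) were lowest.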

How the data were processed

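The authors deposited unnormalized counts: UMIs of each gene in each cell, and reads of each gene in each bulk library. Per the submitters' processing notes, Cell Ranger, STAR, Picard, HTSeq and mm10 were used; the sources used here give no versions of these. Cluster and mouse of each cell are other columns than measurements, deposited by the authors.

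Here, UMIs of member cells were summed per mouse (at least 10 cells) and tested in edgeR 4.0.16 (TMM, filterByExpr, quasi-likelihood F test, two-sided, Benjamini-Hochberg over all genes) under R 4.3.3. Bulk was fitted alike. Cells were normalised to 10000 UMIs, and 500 variable genes and 10 principal components entered k-means with 4 groups. DESeq2 1.42.0 was an alternative, as were other filters, thinned cells and each mouse left out. Python 3.11.15 made the tables and GENCODE vM21 gave positions. Named genes were up to 10 each way by fold change among passing genes without overlap, up to 4 of each list, and the receptors' ligands; the text uses part of them. Col1a1 and the other markers, members and lists were chosen with earlier results of these data known. On simulated data, 4-fold changes were found in 86.9% of cases for SX682 against vehicle, 64.3% for combination against vehicle, 60.2% for combination against SX682 and 68% in bulk, and 2-fold changes in 19.4, 15.6, 9.38 and 21.9%. False calls made up 11.8, 8.24, 2.86 and 9.38%.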

Additional observations from a re-analysis of the deposited data

How the results depend on the processing

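Counts of called genes moved with the processing, in each case as named. SX682 against vehicle (50) gave 88 with DESeq2, 422 without a filter, 4 with at least 5 cells per mouse, 90 for the pair alone, 26 with equal cells, 3 with cells thinned to 2000 UMIs (1489 genes tested, all 3 shared) and 3 to 75 without a mouse. Combination against vehicle (262) gave 795 without a filter, 121 with the replicate block, 88 thinned (72 shared in direction) and 106 to 265 without a mouse. Combination against SX682 (614) gave 1159, 303 with at least 5 cells, 292 with the block, 357 for the pair alone, 34 thinned (32 shared) and 107 to 638. Bulk (23) gave 594 with DESeq2, 283 without a filter and 0 to 16 without a library.

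Replicate numbers did not pair the mice: same-numbered samples correlated from -0.129 to 0.0159 (bulk -0.052 to 0.0718). With the block, Col1a1 in bulk passed (-1.72, adjusted p = 0.0317) and SX682 against vehicle gave 36 genes.

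Shares without a mouse ranged from -2.95 to -2.69 (SHP099 against vehicle), -0.849 to 0.0101 (SX682), -0.941 to -0.635 (combination), 1.89 to 2.16 (combination against SHP099) and -0.785 to 0.0759 (against SX682). The SX682 signs turned without SX682 mouse 3 (0.0101) and mouse 1 (0.0759). Of stromal cells the values were -1.06, -0.989 and 0.0712 (combination against SHP099), and the exact permutation p was 0.244. Without epithelial cluster 21, combination against SHP099 was 2.1, and without tumour clusters 21 and 23 it was 2.13; neither passed. At 3 groups 18.8% of SHP099 cells, not 6.25%, lay in the merged group.

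Single genes turned sign in 2 cases. Col1a2, which the rule used and which is not tested here, was -0.08 between combination and vehicle, and 0.0065 for the pair alone, 0.127 thinned, 0.0944 without vehicle mouse 3 and 0.00719 without combination mouse 1 (-0.19 to 0.0944 over single mice left out). Cxcl13 under SX682 became 1.22 with at least 5 cells. The causes were not tested. Thinning and the tumour cluster total were chosen after seeing the data. A limit of 2 marker UMIs of other cells could not be fitted, since vehicle had 1 mouse with enough cells. Low depth limits SHP099, SX682 mouse 3 and genes near the floor.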

Other observations

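Genes outside the comparisons were read in the collagen-high cells by group, as values with no explanation. Penk, which encodes the opioid precursor proenkephalin, stood at 253 CPM in the Cxcl13 group and at 4.0 to 27.0 CPM in the others. It was found in 12 of the 83 cells of that group, and 108 of its 254 UMIs there came from 1 cell of vehicle mouse 2. Cfd, complement factor D, stood at 200 CPM in the Cxcl13 group, and all 201 UMIs came from 1 cell of SX682 mouse 1. Hbb-bs in the Myh11 group came from 1 cell of combination mouse 2.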
